A study of Capra hircus with 3 samples.

Results

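LOC106502728, LOC102188855 and LOC102186708 are 3 annotated long noncoding RNA (lncRNA) genes of the goat whose transcript levels were lowest in the mammary gland library labelled peak lactation. They are 3 of the 441 lncRNA genes with deposited values, and they were chosen by these FPKM values, which lay far below those of the libraries labelled early and late lactation, so the low point itself is a description and no finding. Mammary gland tissue was taken surgically from 5 Laoshan dairy goats, 4 years old and in lactation 3, at 10 days (early), 90 days (peak) and 210 days (late) after parturition. Surgery was under general anesthesia with xylazine, and the RNA of the 5 goats was mixed in equal parts into 1 stranded library per stage. FPKM are sequenced fragments scaled to the length of the transcript and to the size of the library, so that levels can be compared between genes. With 1 pooled library per stage there is no replicate check, the spread between goats cannot be seen, no p-value is given, and the reads behind each FPKM are unknown.

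The stage of a library is its label in the sample record. In the study's supplementary lists, the transcripts of these genes were higher in the library named peak than in that named late, opposite to the deposited columns read by their labels. Each library is therefore called early-, peak- or late-labelled here, and the deposited values alone do not settle to which of the last 2 stages the low point belongs. A single unannotated locus, XLOC_043394, made up 46.0% of the FPKM sum in the peak-labelled library against 30.0% in the early-labelled and 29.9% in the late-labelled one. If that locus is left out and the libraries are brought to equal sums, log2 ratios of peak over early rise by 0.52 and those of late over peak fall by 0.39 for every gene.

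Long noncoding RNAs are transcribed and often spliced like messenger RNAs but are not translated into known proteins, and many lie beside a protein-coding gene and share its control regions. In the lactating gland, luminal epithelial cells secrete caseins, whey proteins, milk fat and lactose under prolactin and its mediator STAT5. Lactose is made by B4GALT1, a galactosyltransferase of the Golgi that becomes lactose synthase when it binds the whey protein alpha-lactalbumin. The functions of the 3 lncRNAs are not known from the labels, and the gene table used here gives each only a LOC symbol. They have 2 (LOC106502728), 3 (LOC102188855) and 1 (LOC102186708) RefSeq transcripts in the ARS1.2 table.

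LOC106502728 is listed on scaffold NW_005100620.1 from 34252395 to 34256876, a span of 4482 nt. It had 75.8 FPKM in the early-labelled library, 5.34 in the peak-labelled and 228 in the late-labelled one. The late-labelled library was thus the highest, 3.01-fold above the early-labelled and 42.7-fold above the peak-labelled, and early-labelled lay 14.2-fold above peak-labelled. Among the 413 lncRNA genes with at least 1 FPKM in 1 library, it ranked 10 in the early-labelled library, 102 in the peak-labelled and 2 in the late-labelled one.

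LOC102188855 is listed on scaffold NW_005100741.1 from 9327860 to 9358209, a span of 30350 nt, in 3 rows that were summed. The sum was 168 FPKM in the early-labelled library, 12.4 in the peak-labelled and 147 in the late-labelled one. Early-labelled lay 13.5-fold and late-labelled 11.8-fold above peak-labelled, while the early- and late-labelled libraries differed by 1.14-fold. It ranked 3 in both the early- and the late-labelled library and 47 in the peak-labelled one. The row with assembly number XLOC_017848 carried 105, 6.82 and 90.3 FPKM in the early-, peak- and late-labelled libraries, and XLOC_017849 carried 62.4, 5.19 and 53.5. The row with the gene ID alone had only 1.05, 0.438 and 3.36 FPKM, and here the late-labelled library was the highest, as in LOC106502728. All 3 rows were lowest in the peak-labelled library. They share 1 span with each other and with an entry named here ID106502430, which is not in the ARS1.2 table and had 98.4, 6.81 and 82.3 FPKM, so how reads were split among these entries is uncertain.

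LOC102186708 is listed on scaffold NW_005100845.1 from 8073268 to 8078582, a span of 5315 nt. It was the least abundant of the 3 genes, with 11.7 FPKM in the early-labelled library, 0.379 in the peak-labelled and 2.59 in the late-labelled one. Early-labelled was the highest, 31.0-fold above peak-labelled and 4.54-fold above late-labelled, and late-labelled lay 6.82-fold above peak-labelled. Its rank among lncRNA genes was 68, 387 and 199 in the early-, peak- and late-labelled libraries. The 3 genes thus shared the low point and differed in the order of the other libraries, with late over early log2 ratios of 1.59 (LOC106502728), -0.19 (LOC102188855) and -2.18 (LOC102186708). With 1 added to each FPKM, the log2 ratio of late over peak of LOC102186708 was 1.38 instead of 2.77.

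**Figure D1:**
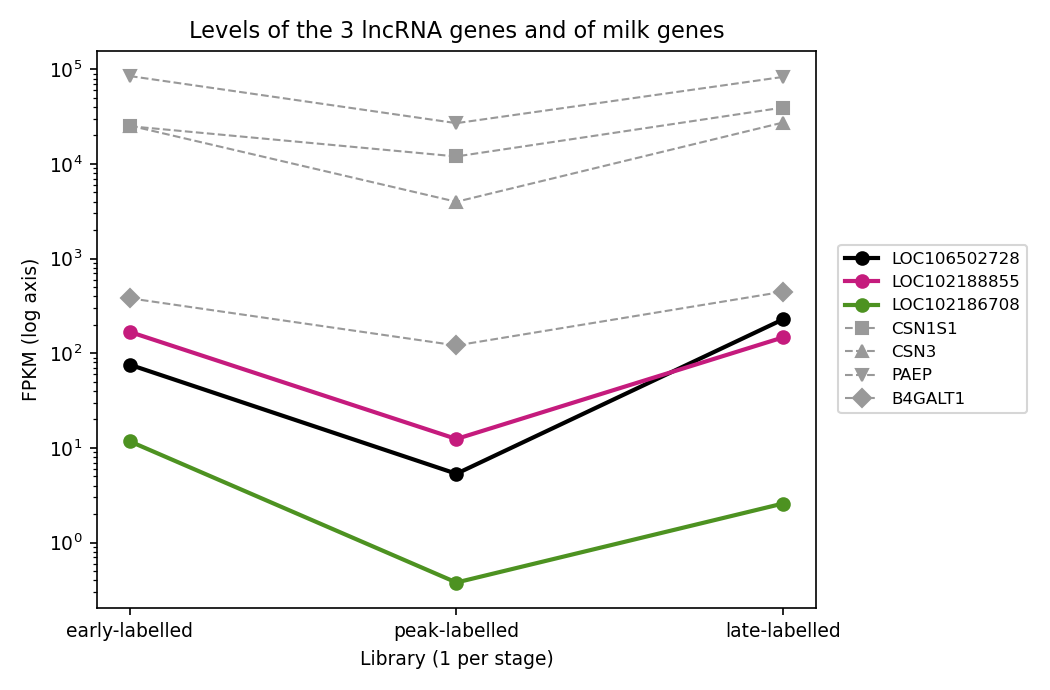
FPKM on a log axis in the 3 libraries (1 pooled library per stage) for the 3 lncRNA genes (solid lines) and, in grey, for the milk genes CSN1S1, CSN3, PAEP and B4GALT1. All 7 genes are lowest in the peak-labelled library, and the lncRNA genes lie between 0.379 FPKM (LOC102186708, peak-labelled) and 228 FPKM (LOC106502728, late-labelled).

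A gene or locus is said here to have the dip when its FPKM in the peak-labelled library was at least 2-fold below each of the other libraries. Of the 413 lncRNA genes with at least 1 FPKM in 1 library, 77 had the dip, or 18.6%, the 3 members among them. The same 2-fold low point in the early-labelled library was met by 2.91% of these lncRNA genes and in the late-labelled library by 7.99%. The dip was found in 665 of 12546 protein-coding genes (5.30%), in 4457 of 34502 unannotated loci (12.9%) and in 5384 of all 49131 loci (11.0%). With libraries brought to equal sums the 3 members kept the dip, while those with it numbered 57 lncRNA genes, 286 protein-coding genes, 2901 unannotated loci and 3351 loci in all.

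Within the 77 lncRNA genes, the members were not those with the greatest depth, taken as the log2 ratio of peak over the lower of early and late. LOC106502728 ranked 8 with -3.83, LOC102188855 ranked 10 with -3.56 and LOC102186708 ranked 15 with -2.77, against a median of -1.83 over the genes above 0. The genes with a deeper dip than LOC106502728 were of low level, the most abundant of them being LOC106502489 with 16.0 FPKM in the early-labelled, 0.0795 in the peak-labelled and 20.1 in the late-labelled library. By mean FPKM, LOC102188855 and LOC106502728 ranked 2 and 3 within the 77 genes and LOC102186708 ranked 31, with LOC106502493 at rank 1. Late-labelled was at least 2-fold above early-labelled in 11 of the 77, including LOC106502728, against 37 of all 413 lncRNA genes (8.96%). The opposite held in 2 of the 77, including LOC102186708, against 50 of all 413 (12.1%).

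**Figure D2:**
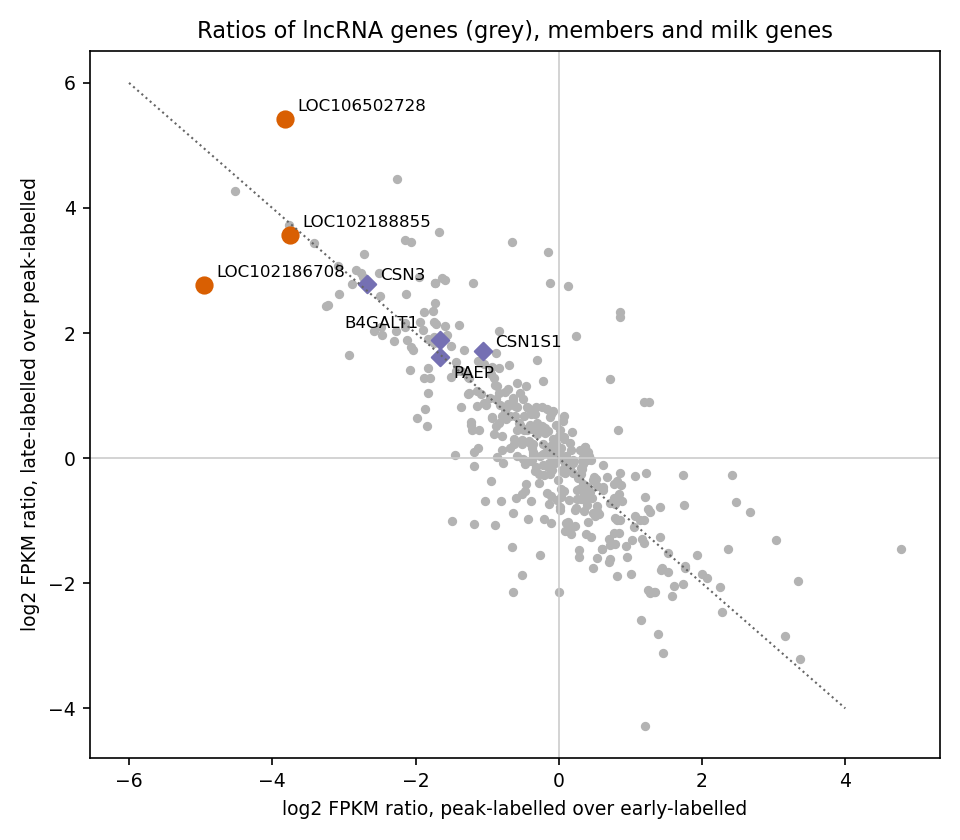
Each point is a gene, with the log2 FPKM ratio of the peak- over the early-labelled library on the x axis and of the late- over the peak-labelled library on the y axis. Grey points are 394 other lncRNA genes with at least 0.1 FPKM in each library, orange points the 3 members and purple diamonds milk genes; on the dotted line early and late are equal. LOC106502728 lies above the line at -3.83 and 5.42, LOC102186708 below it at -4.95 and 2.77, and LOC102188855 close to it at -3.76 and 3.56.

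The neighbourhood was taken as every row within 200 kb of the gene on the same scaffold. Strand is not given in the deposited table, so whether a neighbour is transcribed in the same direction was not analysed here, and adjoining unannotated loci can be pieces of 1 transcript. LOC106502728 had 10 neighbouring rows, of which 9 reached 1 FPKM in a library. MMADHC, which directs vitamin B12 to its enzymes, ends 29398 bp before it. Its levels were 74.7 FPKM in the early-labelled library, 44.5 in the peak-labelled and 80.1 in the late-labelled one, so it was lowest in the peak-labelled library but did not have the dip. LYPD6, a membrane-anchored protein of the Ly6 family, begins 20639 bp after it and stayed below 1 FPKM, with 0.344, 0.916 and 0.476 FPKM in the early-, peak- and late-labelled libraries. LYPD6 was highest in the peak-labelled library, opposite to the lncRNA.

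Between MMADHC and LOC106502728, the 5 unannotated loci nearest to the lncRNA, XLOC_003094 to XLOC_003098, all had the dip. They lie from 8899 to 2277 bp before it and span 440 to 1183 nt. XLOC_003098, the nearest, had 3.65 FPKM in the early-labelled library, was listed at 0 in the peak-labelled one and had 6.55 in the late-labelled one. XLOC_003095 had 1.38, 0.0575 and 3.93 FPKM in the same order. XLOC_003094, XLOC_003096 and XLOC_003097 were also listed at 0 in the peak-labelled library and had 1.69 to 2.91 FPKM in the early-labelled and 2.70 to 4.40 in the late-labelled one. In 4 of the 5 loci, XLOC_003097 being the exception, the late-labelled library was the highest, as in the lncRNA itself. The 3 unannotated loci farther away, XLOC_002775, XLOC_002776 and XLOC_003100, were highest in the peak-labelled library, at 1.66, 1.57 and 2.31 FPKM. In all, 5 of 8 unannotated loci had the dip (62.5%), against the 12.9% of all unannotated loci, and the nearest loci without it lay 22932 bp before and 17984 bp after the lncRNA.

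LOC102188855 had 20 neighbouring rows, and 10 of them had the dip, against 11.0% of all loci. Among these 10 is ID106502430, which has the span of the lncRNA itself and is therefore no separate place. The nearest protein-coding gene is B4GALT1, the galactosyltransferase of lactose synthase, whose locus from 9278251 to 9327082 ends 778 bp before that of the lncRNA. B4GALT1 had 381 FPKM in the early-labelled library, 121 in the peak-labelled and 447 in the late-labelled one. It shared the dip, at 3.15-fold below early-labelled and 3.69-fold below late-labelled, a smaller drop than the 13.5- and 11.8-fold of the lncRNA. The level of LOC102188855 was accordingly 44.1% of that of B4GALT1 in the early-labelled library, 10.3% in the peak-labelled and 32.9% in the late-labelled one.

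On the far side of B4GALT1, 8 consecutive unannotated loci from XLOC_017837 to XLOC_017845 also had the dip, between 73589 and 51982 bp from the lncRNA. XLOC_017845, next to B4GALT1 and 7880 nt long, was the most abundant, with 13.5, 4.12 and 14.2 FPKM in the early-, peak- and late-labelled libraries. The other 7 had 3.85 to 5.69 FPKM in the early-labelled library and 0.359 to 1.10 in the peak-labelled one. In the late-labelled library they had 3.08 to 7.02 FPKM. With the lncRNA, B4GALT1 and ID106502430, the loci with the dip covered an unbroken stretch of 104 kb, in which no row of at least 1 FPKM lacked it.

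Outside this stretch no row within 200 kb had the dip. SMU1, a splicing factor that lies just beyond XLOC_017837, had 29.7, 29.4 and 32.7 FPKM in the early-, peak- and late-labelled libraries. DNAJA1, a co-chaperone of HSP70, had 10.3, 8.86 and 8.61, and APTX, a DNA repair enzyme, had 4.88, 4.16 and 5.10. On the other side, XLOC_017850 had 1.11, 0.199 and 0.311 FPKM, and BAG1, another HSP70 co-chaperone, had 9.03, 5.29 and 10.8. BAG1 was lowest in the peak-labelled library without reaching 2-fold. CHMP5, a subunit of the ESCRT-III membrane remodelling complex, had 29.4, 22.9 and 29.4 FPKM, and the transcription factor NFX1 had 10.2, 10.3 and 9.47. The dip was thus found in 1 of 7 protein-coding neighbours, against 5.30% of all protein-coding genes, and in 8 of 12 unannotated ones (66.7%), against 12.9% of all unannotated loci. With equal library sums the neighbouring rows with the dip still numbered 5 for LOC106502728 and 10 for LOC102188855. The median log2 ratio of peak over early was -2.32 over these 12 loci and 0.15 over all unannotated loci, and that of late over peak was 2.45 against -0.16.

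LOC102186708 differed from the others in this respect. Of its 21 neighbouring rows, 2 had the dip, both unannotated, or 2 of 16 unannotated loci (12.5%), close to the 12.9% of all unannotated loci. They were XLOC_032037, 63179 bp before the gene, with 3.93, 0.484 and 1.21 FPKM in the early-, peak- and late-labelled libraries, and XLOC_032223, 2040 bp before it, with 1.57, 0.0727 and 0.745 FPKM. With equal library sums XLOC_032037 lost the dip, which left 1 locus. XLOC_032223 shares its span with XLOC_032047 and XLOC_032048, which were highest in the peak-labelled library at 2.21 and 2.23 FPKM. The locus nearest to the gene, XLOC_032049 at 770 bp, was also highest in the peak-labelled library, with 2.39, 4.43 and 0.549 FPKM. Its late over early log2 ratio of -2.12 was close to the -2.18 of the lncRNA. On the other side, XLOC_032051 at 4406 bp had 4.14, 1.34 and 2.62 FPKM, in the order of the lncRNA but short of the dip. The median log2 ratio over the 16 loci was 0.03 for peak over early and 0.15 for late over peak.

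None of the 4 protein-coding neighbours of LOC102186708 had the dip. WDR26, a subunit of an E3 ubiquitin ligase, came nearest, with 39.5, 18.1 and 36.0 FPKM in the early-, peak- and late-labelled libraries. LOC100860961, 11256 bp after the lncRNA, had 140.0, 89.6 and 159.8 FPKM. NVL, a nuclear ATPase of ribosome assembly, had 10.5, 9.85 and 10.4 FPKM, and CNIH4, which helps cargo leave the endoplasmic reticulum, had 14.2, 12.9 and 10.0. In the ARS1.2 gene table, all of the protein-coding neighbours named above also lie within 200 kb of their lncRNA, but the lists are not the same. That table has 10 protein-coding genes around LOC102188855 against 7 here, adding AQP7, LOC102183600 and SPINK4, and 5 around LOC102186708 against 4 here, adding CNIH3, and the 2 around LOC106502728 are those given here.

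**Figure D3:**
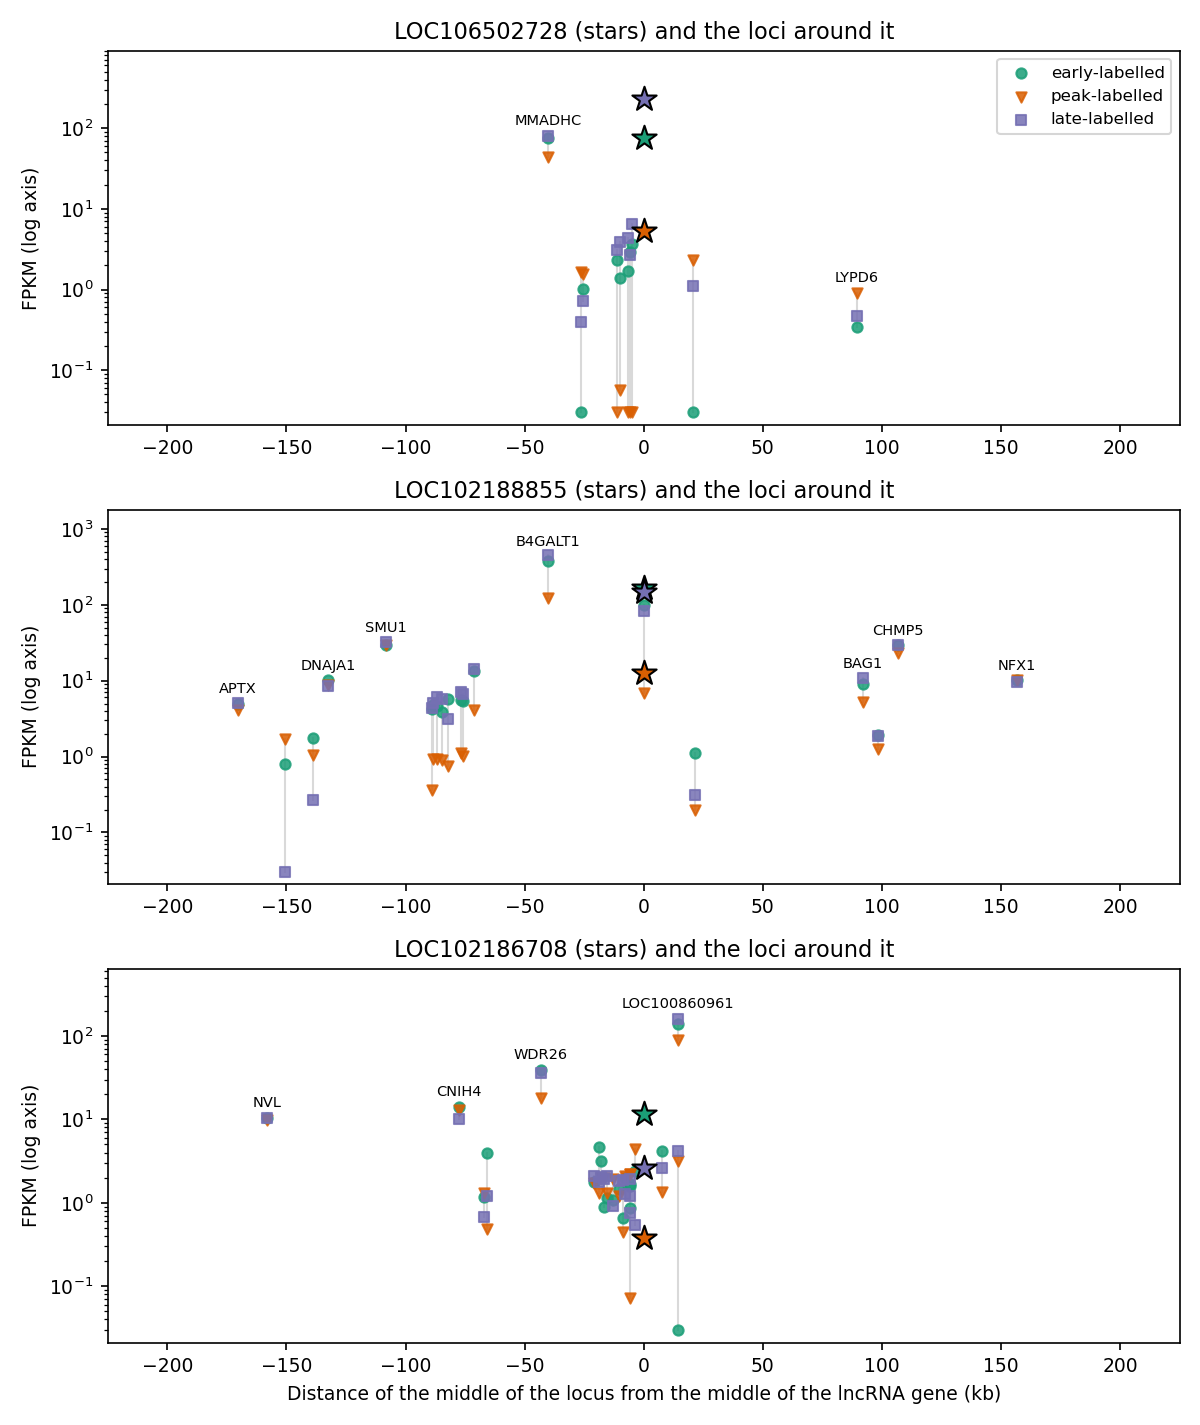
FPKM (log axis) of every row within 200 kb of each lncRNA gene against the distance of its middle from that of the lncRNA in kb, in the early- (circles), peak- (triangles) and late-labelled (squares) libraries, with protein-coding genes named, the lncRNA as stars and values of 0 drawn at 0.03. The peak-labelled point of a row lies well below its early- and late-labelled points in 5 loci beside LOC106502728 and in the block that holds B4GALT1, and the 3 points of a row are mostly mixed around LOC102186708.

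**Figure D4:**
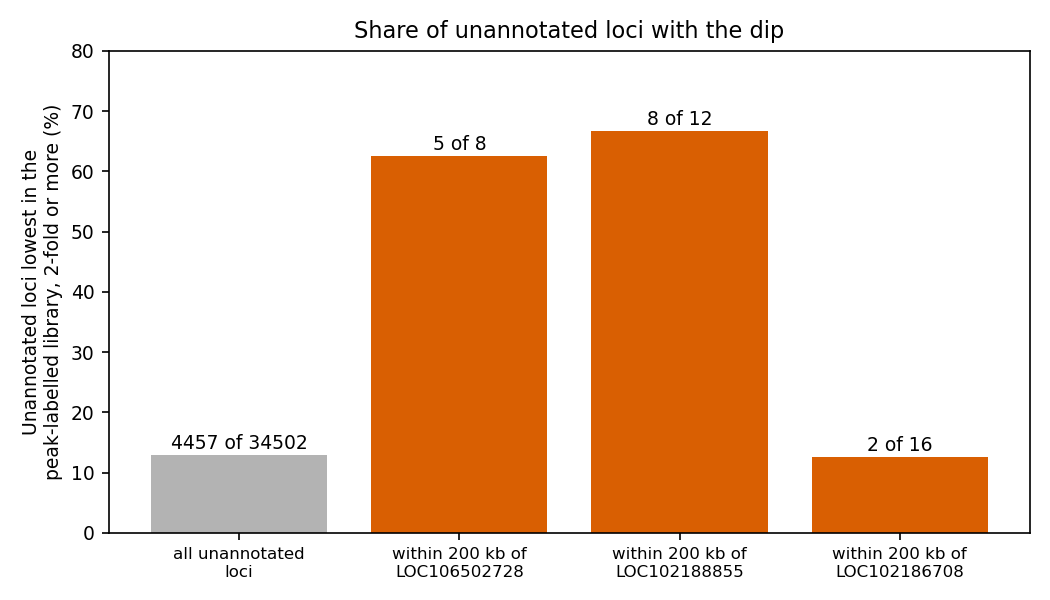
Bars give the percent of unannotated loci with at least 1 FPKM in 1 library whose peak-labelled FPKM was at least 2-fold below both other libraries, for all such loci (grey) and for those within 200 kb of each lncRNA gene (orange). The bars stand at 12.9% for all loci and at 62.5%, 66.7% and 12.5% for LOC106502728, LOC102188855 and LOC102186708, over 8, 12 and 16 loci.

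The casein genes also had their low point in the peak-labelled library. CSN1S1 (alpha-s1-casein) had 25057 FPKM in the early-labelled, 12017 in the peak-labelled and 39445 in the late-labelled library. CSN3 (kappa-casein, which stabilizes the casein micelle) had 25445.5, 3989 and 27391 FPKM, and PAEP, the whey protein beta-lactoglobulin, had 84874, 26998.5 and 83113. CSN2 and CSN1S2 were not analysed here. LALBA, which encodes alpha-lactalbumin, had 70053 FPKM in the early-labelled and 15214 in the peak-labelled library and was listed at 0 in the late-labelled one, which need not mean that it was absent. Of the 4 genes of this list that were found, 3 had the dip, against 5.30% of all protein-coding genes. With libraries brought to equal sums CSN1S1 lost it and CSN3 and PAEP kept it.

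The lncRNAs shared the low point with CSN1S1, CSN3 and PAEP, and differed from them in its size and in the order of the other libraries. LALBA, listed lowest in the late-labelled library, did not share it and is left out of this comparison. The lncRNAs were chosen for peak-labelled values far below the others, so the size of their drop is also a description only. Early-labelled lay above peak-labelled by 2.09-fold in CSN1S1, 6.38-fold in CSN3 and 3.14-fold in PAEP, against 14.2-, 13.5- and 31.0-fold in LOC106502728, LOC102188855 and LOC102186708. Late-labelled lay above peak-labelled by 3.28-, 6.87- and 3.08-fold in the same milk protein genes, and by 42.7-, 11.8- and 6.82-fold in the lncRNAs. LOC102186708 was thus within the range of these milk protein genes for late over peak and outside it for early over peak. Of late over early, the log2 ratios were 0.65 in CSN1S1, 0.11 in CSN3 and -0.03 in PAEP, between those of LOC106502728 (1.59) and LOC102188855 (-0.19), and far from that of LOC102186708 (-2.18). The ratios of early over peak and of late over peak both use the peak-labelled library, so 1 low or high library moves them together. The ratio of late over early does not use it.

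In the FPKM as deposited, the dip extended to most genes of milk secretion that were listed. In the milk fat list, 10 of 14 genes had it, against 5.30% of all protein-coding genes, among them FABP3, a fatty acid carrier, with 3051, 563 and 3583 FPKM in the early-, peak- and late-labelled libraries. XDH, which organizes the milk fat globule membrane with butyrophilin, had 1558, 509 and 2148 FPKM. The list's median log2 ratio was -1.29 for peak over early and 1.74 for late over peak, against 0.00 and -0.01 over all protein-coding genes. With libraries brought to equal sums, 5 of the 14 genes had the dip, FABP3 and XDH among them. In that setting the dip was found in 286 protein-coding genes in all, against 665 of 12546 as deposited. In the list of lactogenic regulators and lactose synthesis, 6 of 10 genes found had it, against the same 5.30%, and 4 with equal sums. STAT5A and STAT5B were not analysed here. The 6 genes with the dip included ELF5, an epithelial transcription factor of secretory differentiation, with 879, 244 and 875 FPKM, and UGP2, which makes UDP-glucose, with 205, 57.2 and 212 FPKM. The prolactin receptor PRLR had 125, 67.9 and 131 FPKM and JAK2, its kinase, 30.3, 29.7 and 29.7, and neither had the dip. SOCS3, a feedback inhibitor, was highest in the peak-labelled library, with 4.87, 10.7 and 1.69 FPKM. The median log2 ratio of this list was -1.38 for peak over early and 1.21 for late over peak.

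Marker genes of cell types were read beside these values. In RNA of whole tissue, fewer cells of a type and less RNA per cell cannot be told apart. Over all protein-coding genes, 5406 of 12546 were highest in the peak-labelled library and 5.30% had the dip. Of 6 luminal epithelial markers only ELF5 had the dip, and 3 were highest in the peak-labelled library, such as KRT8 with 126, 196 and 154 FPKM in the early-, peak- and late-labelled libraries. Their summed level was 1577, 984 and 1526 FPKM, and that of the 5 genes other than ELF5 was 698, 740.5 and 650.3 FPKM, highest in the peak-labelled library. Leukocyte markers were highest in the peak-labelled library in 5 of 6 genes, with sums of 390.2, 663 and 399 FPKM, and the T cell marker CD3E was listed at 0 in the early- and peak-labelled libraries. JCHAIN gave most of each sum, with 266, 429 and 337 FPKM in the early-, peak- and late-labelled libraries. PTPRC, CD74, CD68 and CD14 were lowest in the late-labelled library, PTPRC with 17.6, 39.9 and 8.08 FPKM and CD74 with 90.5, 178 and 39.8. Basal and myoepithelial markers summed to 208, 216 and 192 FPKM, of which OXTR, the oxytocin receptor, alone had the dip. Endothelial markers summed to 123, 111 and 135 FPKM, fibroblast markers to 664, 549 and 542, and the 4 adipocyte markers found to 18.9, 6.44 and 6.41, and none of these lists held a gene with the dip. The part of cell composition in the low values of the lncRNAs was not tested.

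The annotated genes with the most similar pattern were found by the Euclidean distance between the log2 ratios of peak over early and of late over peak, among 13067 genes with at least 0.1 FPKM in each of the 3 libraries. For LOC102188855 the nearest was LOC106502622, another lncRNA gene, at a distance of 0.16, with 2.67, 0.196 and 2.59 FPKM in the early-, peak- and late-labelled libraries. The next was LOC102174578 at 0.35, a protein-coding gene listed at the same span as LOC106502622, followed by the lncRNA gene LOC102181949 at 0.36. RGS4, a regulator of G protein signalling, stood at 0.40 and had 111, 6.60 and 92.4 FPKM, and MEP1B, a metalloprotease, stood at 0.47. CSN3 had rank 45 at a distance of 1.34 and B4GALT1 rank 273 at 2.69. PAEP had rank 330 at 2.86 and CSN1S1 rank 520 at 3.27.

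The other members had no neighbour as close. For LOC106502728 the nearest gene was LOC102186944, a protein-coding gene with 257, 11.9 and 474 FPKM in the early-, peak- and late-labelled libraries, at a distance of 0.61. LOC102170015 followed at 0.87, TECTB, a tectorin of the inner ear matrix, at 1.05, LOC102177798 at 1.33 and the lncRNA gene LOC106502460 at 1.34. For LOC102186708 the nearest were TYR, the tyrosinase of melanin synthesis, at 0.68 and PGLYRP1, which binds bacterial peptidoglycan, at 1.01. PGLYRP1 had 63.2, 3.30 and 13.5 FPKM, highest in the early-labelled library like the lncRNA. SLC16A12, LOC102183203 and SLC10A6 stood at 1.07, 1.09 and 1.24. CSN3 and CSN1S1 had ranks 57 and 480 for LOC106502728, and ranks 49 and 604 for LOC102186708. The members lay 1.43 (LOC102188855 and LOC102186708), 1.85 (LOC106502728 and LOC102188855) and 2.87 (LOC106502728 and LOC102186708) apart. Likeness over 3 libraries rests on 2 ratios and is a description only.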

How the data were processed

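RNA of 5 goats per stage was pooled and sequenced as 1 stranded library per stage. Per the study's methods and the submitters' processing notes, trimmed reads were mapped by the authors with TopHat2 2.0.9, assembled with Cufflinks 2.1.1 and Cuffmerge, and quantified with Cuffdiff. FPKM were deposited for 50041 loci, in 3 columns assigned to stages by the sample descriptions. Between 46.6% and 52.0% of the values per column end in the digit 5, as means of a pair of numbers would, and what was averaged is not given in the sources used here. Read numbers per locus were not used, so how many reads stand behind a value is unknown.

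The locus start, counted from 0, was raised by 1. The study's methods name a goat reference genome, but the deposited scaffold names were not checked against it. Gene IDs were therefore matched to the ARS1.2 gene table for names and classes only (14290 of 15161 loci with 1 ID). Rows of one ID were summed to 441 lncRNA and 13023 protein-coding genes. Loci needed at least 1 FPKM in 1 library. A dip is a peak-labelled FPKM at least 2-fold below both other libraries, with no pseudocount, and no ratio was taken where a value was 0. No statistical test was run. Named were the members, their neighbours within 200 kb (at most 10 unannotated loci each by the rule, and others where a count turned on them), milk protein genes, and the 5 genes nearest in pattern. From lists, genes were named where the list held a dip, and also from the leukocyte list. The examples from the lists were chosen after their values were seen. Members and lists were chosen with earlier results of these data known. Alternatives were pseudocounts of 0.1 and 1, other folds, windows and FPKM minimums, equal library sums without the most abundant locus, median centring, rows kept apart, and exchanged peak and late columns. Exchanging the columns for neighbouring loci, and leaving ELF5 out of the luminal sum, were added after seeing the data. Python 3.11.15, numpy 2.4.6, pandas 2.3.3 and matplotlib 3.10.9 were used.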

Additional observations from a re-analysis of the deposited data

How the results depend on the processing

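The 3 members had the dip with pseudocounts of 0.1 and 1 and with equal library sums. With the columns labelled peak and late exchanged, 0 of 3 had it. This was fixed in advance, because the members were chosen for their low values in the peak-labelled column. The exchange only renames these columns, so the sign of late over peak must reverse. Counts of loci or genes under it are low points in the late-labelled column. The exchange reversed the log2 ratio of late over peak to -5.42 (LOC106502728), -3.56 (LOC102188855) and -2.77 (LOC102186708), and for LOC106502728 those of peak over early to 1.59 and of late over early to -3.83. The gene ID row of LOC102188855 alone had a late over early log2 ratio of 1.67. With the columns exchanged, which was added after seeing the data, 0, 2 and 1 loci near LOC106502728, LOC102188855 and LOC102186708 had the dip. Under the other alternatives the counts near LOC106502728 and LOC102188855 stayed within 1.5 times, at 5 to 6 and 8 to 12 loci. Near LOC102186708 the 2 loci became 0 with a pseudocount of 1, 1 with equal sums, 5 at 1.5-fold, 1 at 4-fold and 4 within 500 kb.

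Over all loci the dip count was 2184 with a pseudocount of 1, 3351 with equal sums, 8551 at 1.5-fold and 2027 at 4-fold. Unannotated loci numbered 1586 with a pseudocount of 1, 2901 with equal sums and 1803 at 4-fold. Protein-coding genes numbered 286 with equal sums, 1582 at 1.5-fold and 118 at 4-fold. Annotated lncRNA genes numbered 48 with a pseudocount of 1, 32 at 4-fold and 33 with the columns exchanged. With equal sums 5 milk fat genes had the dip. With the columns exchanged 1 casein or whey gene, 1 milk fat gene and 1 gene of the regulator list had it. A pseudocount of 1 kept 3, 1 and 3 of the 5 nearest genes of LOC106502728, LOC102188855 and LOC102186708. The cause of these changes was not tested beyond the stricter or looser thresholds. No paired analysis was possible because only 1 pooled library per stage was analysed here.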

Other observations

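Loci with the dip were also found beside the caseins. On scaffold NW_005100697.1, within 200 kb of CSN1S1 and CSN3, an entry named here ID106502215 had 21190.5 FPKM in the early-labelled library, 9163 in the peak-labelled and 32039.6 in the late-labelled one, and LOC102178810, between both casein genes, had 132, 19.5 and 130.5 FPKM. Both had the dip, against 5384 of all 49131 loci (11.0%). With equal library sums, under which 3351 loci in all had the dip, LOC102178810 kept it and ID106502215 lost it. XLOC_013222, with 0.510, 1.19 and 1.16 FPKM, did not have it.

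The protein-coding neighbours of other lncRNA genes were counted in the same way, after the block around B4GALT1 had been seen. Of the 74 other lncRNA genes with the dip, 67 had a protein-coding gene of at least 1 FPKM within 200 kb, and in 20 of these (29.9%) a neighbour had the dip. Of 336 lncRNA genes without the dip, 310 had such a gene and in 55 (17.7%) a neighbour had the dip. Counted by neighbour, 30 of 248 protein-coding genes (12.1%) and 60 of 1396 (4.30%) had it, against 5.30% of all protein-coding genes. Some lncRNA genes share a locus with a neighbour, whose reads then cannot be told apart, and no test was run.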
